A study of Rattus norvegicus with 18 samples.

Results

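Atp2a2, Pln and Casq2 encode proteins of the sarcoplasmic reticulum, the internal calcium store of heart muscle cells, and this account follows their RNA in rat hearts after doxorubicin and after doxorubicin with AICAR. They were chosen as the rows ENSRNOG00000001285 (Atp2a2), ENSRNOG00000000413 (Pln) and ENSRNOG00000016243 (Casq2), each kept if its mean reached 50 TPM in the saline hearts. All 3 of 3 met that minimum, and all 3 passed the filter on low values that left 14732 of 32545 identifiers for testing. TPM, transcripts per 1000000, corrects reads for the length of the gene and gives every library the same total, so levels of different genes can be compared. The deposited table lists identifiers without names, the reference table used here matched 0 of them, and the symbols are those under which the rows were chosen.

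At each heartbeat calcium leaves the sarcoplasmic reticulum, makes the muscle contract, and is pumped back so that it relaxes. Atp2a2 encodes SERCA2, the pump that returns calcium to the store. Pln encodes phospholamban, a small membrane protein that inhibits SERCA2 until it is phosphorylated, so the amount of phospholamban per pump bears on how fast the heart relaxes. Casq2 encodes calsequestrin 2, the protein that binds calcium inside the store beside the release channel. A lower SERCA2 level, or more phospholamban per pump, is a known feature of failing hearts.

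Hearts came from 18 male rats of the outbred Wistar strain, 6 per group, with 1 library per animal. Rats weighed 250 g at the start and received 5 weekly intravenous injections. The saline group received saline, and the other groups received doxorubicin, an anthracycline cancer drug that damages heart muscle, at 3 mg/kg per week. Rats given doxorubicin also received subcutaneous saline (DOX+saline) or 0.5 g/kg subcutaneous AICAR (DOX+AICAR), a nucleoside that cells turn into an AMP mimic that activates the kinase AMPK. There was no group given AICAR without doxorubicin, and the sources used here do not give the rats' age, the schedule of AICAR or the part of the heart used. They also leave unclear whether the saline group received subcutaneous saline. Saline animals are numbered 51 to 56 and doxorubicin animals 1 to 12, so a difference between number series and an effect of doxorubicin cannot be told apart.

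Libraries held 20.57 to 31.32 M reads (M, 1000000) assigned to genes, recovered from the TPM values. Within each group, pairs of libraries differed by 2.65 to 15.6 times the sampling noise of their reads, by the median chi-square per gene. The exception was DOX+saline animals 1 and 6, which differed by 1.37 times the sampling noise, against at least 6.36 for every other pair of that group. They were kept as 2 animals, and the changes and ratios that moved with them are also given with the pair averaged to 1 library or left out.

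The 250 bases before the start site of each of the 3 genes are shown here so that the promoters can be compared beside the changes in level, from RefSeq on build GRCr8, plus strand, 5′ to 3′. The expression values were made on another build, Rnor_6.0. Capitals mark matches, on either strand, to 3 short motifs bound by common promoter factors. The GC box was searched as GGGCGG. The second motif is named for its letters, CCAAT. The E-box was searched with any base at its centre, as CANNTG.
Atp2a2, chr12:39733269-39733518: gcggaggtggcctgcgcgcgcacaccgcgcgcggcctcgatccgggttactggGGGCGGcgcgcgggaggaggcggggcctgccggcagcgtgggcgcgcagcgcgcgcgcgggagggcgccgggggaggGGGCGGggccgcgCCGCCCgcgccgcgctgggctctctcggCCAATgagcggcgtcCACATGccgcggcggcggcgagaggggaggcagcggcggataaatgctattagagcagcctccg
Pln, chr20:33172244-33172493: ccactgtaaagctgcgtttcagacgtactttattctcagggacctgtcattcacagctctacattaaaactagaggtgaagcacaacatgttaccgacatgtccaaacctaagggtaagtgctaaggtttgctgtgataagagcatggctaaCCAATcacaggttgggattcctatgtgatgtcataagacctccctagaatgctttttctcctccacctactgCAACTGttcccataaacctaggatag
Casq2, chr2:192214306-192214555: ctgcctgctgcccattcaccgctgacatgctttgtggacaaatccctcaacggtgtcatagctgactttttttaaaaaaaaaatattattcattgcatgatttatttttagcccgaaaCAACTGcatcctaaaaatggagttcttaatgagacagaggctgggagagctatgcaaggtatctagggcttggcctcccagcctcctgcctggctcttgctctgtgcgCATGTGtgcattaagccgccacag
The Atp2a2 stretch was 80.0% G or C and held 45 CG pairs, where the median of 33469 rat promoters of this length was 51.2% and 5. Pln, at 44.0% with 3 CG pairs, and Casq2, at 46.4% with 5, lay below that median for G and C. GC boxes were found in Atp2a2 only, where 3 matches began at -197, -120 and -107 from the start, and 30.5% of all promoters hold at least 1. A CCAAT box began at -79 in Atp2a2 and at -98 in Pln, and none was found in Casq2, against 34.0% of all promoters. E-boxes were found in all 3 genes, at -64 in Atp2a2, at -26 in Pln, and at -132 and -24 in Casq2, as in 65.5% of all promoters. The TATA box letters TATAAA, present in 12.9% of promoters, were in none of the 3. These matches describe letters in these windows only.

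In saline hearts the 3 genes were among the most abundant transcripts. By mean TPM, Atp2a2 ranked 21, Pln 40 and Casq2 101 among the 32545 identifiers, and together they held 0.646% of the TPM total. The ratio of TPM values to Atp2a2 was 0.674 ± 0.0317 for Pln and 0.347 ± 0.0265 for Casq2 (SD, n = 6). TPM used 1 fixed length per gene, so these ratios are not measured numbers of transcripts. After doxorubicin the 3 genes together held 0.514% of the total in DOX+saline and 0.536% in DOX+AICAR. Counting error was small for all of them, since the lowest library still had 28478 reads of Casq2, 41705 of Pln and 188878 of Atp2a2, and at those depths it was at most 0.593%.

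DOX+saline hearts were set against saline hearts to ask what doxorubicin did to these genes. All 3 were lower. By estimate the pump transcript fell by 26.6%, the phospholamban transcript fell by 19.0% and the calsequestrin transcript fell by 6.58%. The order of the first 2 is one of estimates, since the Pln to Atp2a2 ratio did not pass (exact permutation, adjusted p = 0.112). Of all 14732 genes tested 58.0% passed the test and 20.0% passed it as lower, so a fall alone was common (limma on log2(TPM + 1), adjusted p below 0.05). Among the 310 genes averaging at least 500 TPM over the 18 libraries, 154 were lower and 105 higher. The median log2 change was -0.30 over the 3 genes, -0.13 over the 310 abundant genes and 0.10 over all genes tested.

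Atp2a2 ranged from 2941 TPM (animal 53) to 3457 TPM (animal 56) in saline, with a median of 3143. In DOX+saline it ranged from 2150 TPM (animal 1) to 2637 TPM (animal 2), with a median of 2281. Every DOX+saline heart lay below every saline heart, a separation in this direction shown by 11.2% of the genes tested. Group means were 3198 ± 212 TPM and 2347 ± 179 TPM (SD, n = 6), so the log2 change was -0.45 with an SE of 0.05 (limma adjusted p = 1.66e-06), with a 95% interval of the percent change from -32.0% to -20.8%. Of the 310 abundant genes, 36 had a more negative change. The call held with animals 1 and 6 averaged (log2 change -0.43, limma adjusted p = 6.34e-06) and without both (-0.40, limma adjusted p = 2.59e-05).

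Pln ranged from 2031 TPM (animal 55) to 2488 TPM (animal 51) in saline, with a median of 2105. In DOX+saline it ranged from 1454 TPM (animal 1) to 2097 TPM (animal 2), with a median of 1745. Animals 2 and 5, at 2097 and 2049 TPM, lay within the saline range, and the other 4 lay below it. Animals 1 and 6 were the lowest of all 18 hearts for Pln, and also for Atp2a2. Mean Pln fell from 2155 ± 174 TPM to 1758 ± 276 TPM (SD, n = 6), and its log2 change was -0.30 with an SE of 0.09 (limma adjusted p = 0.00956), with a 95% interval of the percent change from -29.3% to -7.27%. Without animals 1 and 6 the log2 change was -0.18 and the call was lost (limma adjusted p = 0.0878). With the pair averaged to 1 library it was -0.25 and the call held (limma adjusted p = 0.0268). The size of the Pln change therefore rested in part on these 2 libraries. Among the 310 abundant genes, 96 had a more negative change than Pln.

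Casq2 ranged from 1043 to 1188 TPM in saline, with a median of 1097, and from 991 to 1101 TPM in DOX+saline, with a median of 1029. In 4 of 6 DOX+saline hearts Casq2 was below the lowest saline heart, and animals 4 and 5 lay within the saline range. Means were 1107 ± 57.0 and 1033 ± 41.9 TPM (SD, n = 6), and the log2 change was -0.10 with an SE of 0.04 (limma adjusted p = 0.0471), with a 95% interval of the percent change from -12.0% to -0.865%. This call was lost in 16 of 29 alternatives, over which the limma adjusted p ran from 0.00275 to 0.59, and with animals 1 and 6 averaged the p was 0.0693. The log2 change stayed negative in all 29 alternatives, from -0.20 with median-of-ratios factors to -0.03 with quantile normalization. Fits that leave out a DOX+AICAR animal, change the filter on low values or use only the 12 libraries compared cannot move this estimate, so their sign is no check. Among the 310 abundant genes, 167 had a more negative change than Casq2, so its fall was not large for a gene of this abundance.

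**Figure D1:**
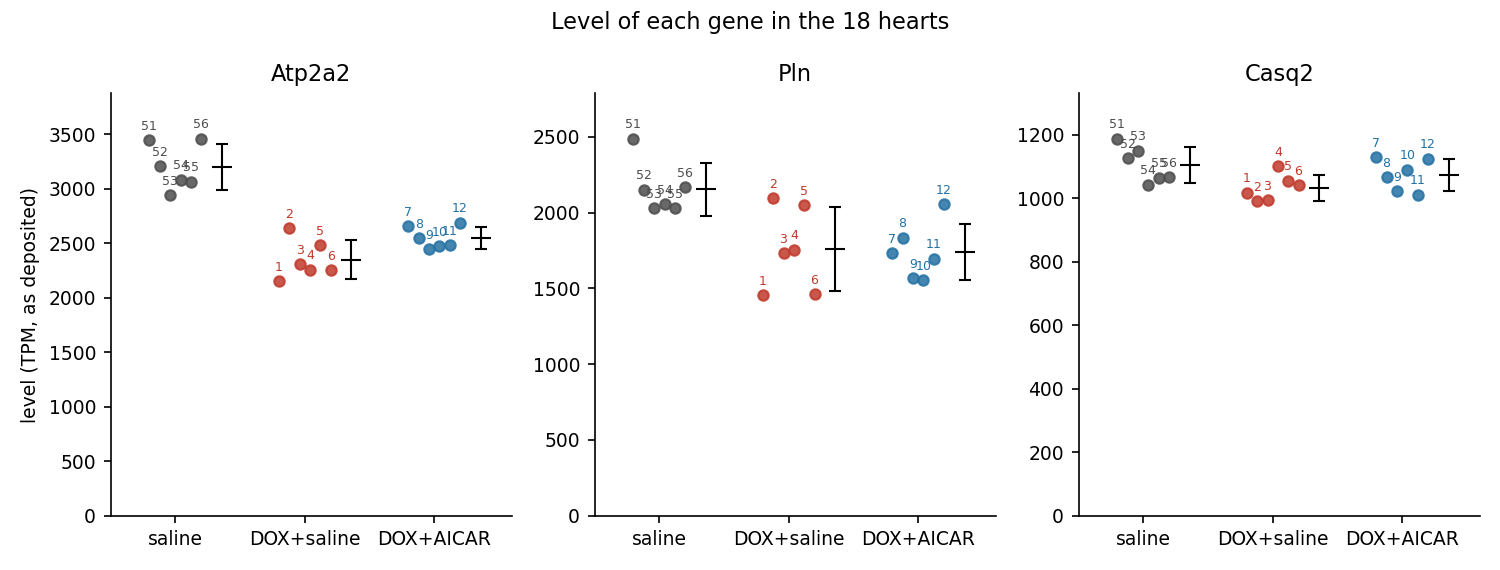
Level of each gene in TPM in every heart, with animal numbers, by group. Black marks show the group mean and SD (n = 6). All 12 hearts given doxorubicin lay below the lowest saline heart for Atp2a2, at 2941 TPM, while for Pln and Casq2 the groups overlapped.

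TPM is a share of a fixed total, and the centre of all genes depended on the scaling. In DOX+saline against saline the median log2 change of all genes tested was 0.10 on the values as deposited, 0.01 after median-of-ratios factors and -0.06 after quantile normalization. The share of calls that were higher was 65.5%, 51.3% and 41.0% in turn. Relative to that median, the log2 change of Atp2a2 was -0.55, -0.56 and -0.39 under these 3 scalings, and that of Pln was -0.41, -0.42 and -0.14. For Casq2 it was -0.20, -0.21 and 0.03, so its direction relative to all genes flipped with quantile normalization. In whole tissue, fewer muscle cells and less RNA per muscle cell cannot be told apart from these levels. Cell type marker lists were not analysed here, because identifiers could not be matched to symbols.

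The hearts of DOX+AICAR were set against those of DOX+saline to ask what AICAR added. None of the 3 genes passed the test (limma, 0 of 3), and 1.33% of all genes did. At an unadjusted p below 0.05 there was 1 of the 3, Atp2a2, and 17.6% of all genes. With limma-voom on recovered reads 0 of 3 passed, adjusted or unadjusted, against 226 of all genes adjusted and 18.1% of them at an unadjusted p below 0.05. The intervals below take their spread from all 18 libraries and are not adjusted for the number of genes tested. The interval of Atp2a2 therefore lay above 0 although the gene did not pass.

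Atp2a2 ranged from 2442 TPM (animal 9) to 2688 TPM (animal 12) in DOX+AICAR, with a median of 2513 and a mean of 2547 ± 103 TPM (SD, n = 6). Animals 7 and 12, at 2655 and 2688 TPM, lay above the highest DOX+saline heart, and no DOX+AICAR heart lay below 2442 TPM. Of the DOX+saline hearts 4 were at 2304 TPM or less, among them animals 1 and 6, the libraries most alike. The log2 difference from DOX+saline was 0.12 (SE 0.05, unadjusted p = 0.0341, limma adjusted p = 0.242), with a 95% interval of the percent difference from 0.703% to 17.3%. It was 0.10 with DOX+saline animals 1 and 6 averaged (limma adjusted p = 0.342) and 0.08 without both (limma adjusted p = 0.47). The difference was positive in all 29 alternatives, from 0.08 without animals 1 and 6 to 0.16 with array weights, and its limma adjusted p ran from 0.0546 to 0.47. Fits that leave out a saline animal, change the filter on low values or use only the 12 libraries compared cannot move this estimate. Their sign is therefore no check.

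Pln ranged from 1556 TPM (animal 10) to 2054 TPM (animal 12) in DOX+AICAR, with a median of 1714 and a mean of 1740 ± 186 TPM (SD, n = 6). The range lay inside that of DOX+saline. The log2 difference was -0.01 (SE 0.09, limma adjusted p = 0.981), with a 95% interval of the percent difference from -13.1% to 14.0%. It was -0.13 without DOX+saline animals 1 and 6 (limma adjusted p = 0.381) and -0.06 with them averaged (limma adjusted p = 0.789). Neither value passed. Casq2 ranged from 1011 to 1129 TPM in DOX+AICAR, with a median of 1078 and a mean of 1074 ± 50.1 TPM (SD, n = 6). Its log2 difference was 0.06 (SE 0.04, limma adjusted p = 0.505), with an interval from -2.07% to 10.3%.

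DOX+AICAR against saline showed how far these genes stood from saline in rats given both drugs. Atp2a2 fell by 20.3% and Pln fell by 19.4%, and Casq2 did not pass the test at -2.92%. In this comparison 53.3% of all genes passed the test and 18.4% passed it as lower. The 6 DOX+AICAR hearts were again all below the 6 saline hearts for Atp2a2, as for 11.6% of the genes tested (log2 change -0.33, SE 0.05, limma adjusted p = 5.55e-05). For Pln 5 of 6 DOX+AICAR hearts lay below the saline range, the exception being animal 12 (log2 change -0.31, SE 0.09, limma adjusted p = 0.00911). For Casq2 the log2 change was -0.04 (SE 0.04, limma adjusted p = 0.398), with a 95% interval of the percent change from -8.52% to 3.02%. It passed the test as lower with median-of-ratios factors (log2 change -0.14, limma adjusted p = 0.0268) and was above 0 with quantile normalization (0.05, limma adjusted p = 0.272). The saline hearts serve both comparisons with saline, so these values are not independent of those of DOX+saline.

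Ordered by mean level, Atp2a2 and Casq2 ran saline, DOX+AICAR, DOX+saline, and Pln ran saline, DOX+saline, DOX+AICAR. For each gene the lowest pair in that order, the 2 doxorubicin groups, did not differ past the threshold. For Casq2 neither did saline and DOX+AICAR.

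**Figure D2:**
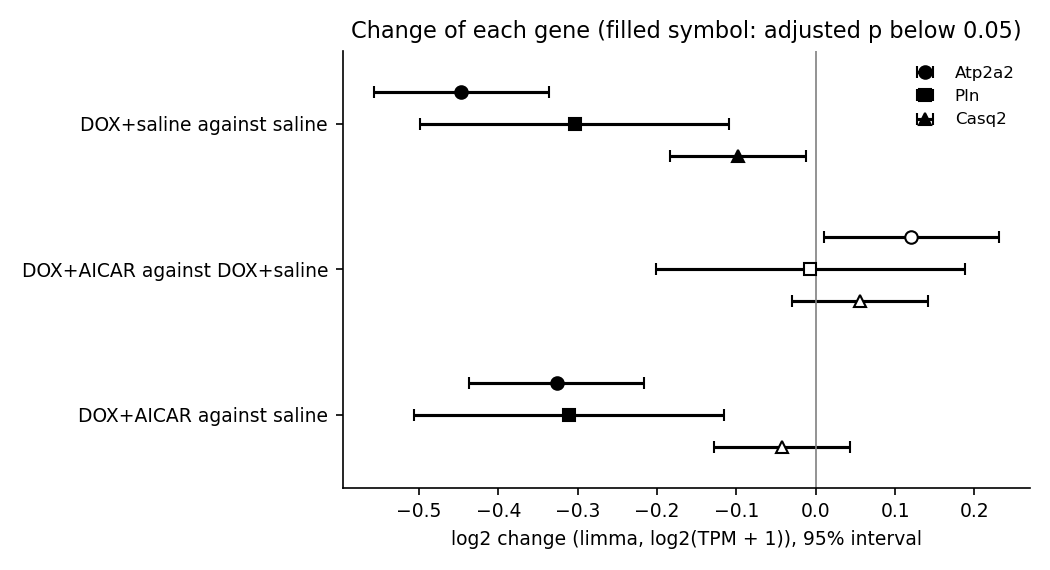
Change of each gene on the log2(TPM + 1) scale in the 3 comparisons, with the 95% interval of the limma fit on 18 libraries. Filled symbols passed the test. Atp2a2 had the most negative estimate against saline in both doxorubicin groups, at -0.45 and -0.33, beside -0.30 and -0.31 for Pln. The 3 open symbols of DOX+AICAR against DOX+saline lay between -0.01 and 0.12.

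Whether the genes moved by the same factor was asked with ratios of their TPM values within a library, which do not depend on how a library is scaled. The Casq2 to Atp2a2 ratio was higher after doxorubicin, with and without AICAR. The Pln to Atp2a2 ratio did not differ between groups past the threshold. These are ratios of RNA, and mean Casq2 itself was below saline in both doxorubicin groups. In DOX+saline against saline the log2 change was -0.45 for Atp2a2, -0.10 for Casq2 and 0.10 for the median of all genes tested. A higher ratio to Atp2a2 was therefore common among genes, and its share over all genes was not counted. Of 9 comparisons (3 ratios in 3 pairs of groups), 3 passed at an adjusted p below 0.05, by two-sided exact permutation of the log2 ratios. The smallest p this test can give is 0.00216.

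The Pln to Atp2a2 ratio ranged from 0.627 (animal 56) to 0.723 (animal 51) in saline, with a median of 0.670. In DOX+saline it ranged from 0.649 (animal 6) to 0.826 (animal 5), with a median of 0.765. Animals 2, 3, 4 and 5 lay above all saline hearts, and animals 1 and 6, at 0.676 and 0.649, lay within the saline range. The ratio was 1.10-fold higher in DOX+saline (log2 difference 0.14, SE 0.06, exact permutation p = 0.0498, adjusted p = 0.112), which did not pass after adjustment. Without animals 1 and 6 the log2 difference was 0.23 and passed (exact permutation, adjusted p = 0.0143), and with the pair averaged to 1 library it was 0.18 and did not (exact permutation, adjusted p = 0.0584). Leaving out animal 6 alone gave 0.18 and passed (exact permutation, adjusted p = 0.0341). With animal 1 alone left out it was 0.17 and did not pass (exact permutation, adjusted p = 0.0682).

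In DOX+AICAR the Pln to Atp2a2 ratio ranged from 0.630 (animal 10) to 0.764 (animal 12), with a median of 0.668, and 5 of 6 hearts lay within the saline range. Its geometric mean was 0.681, against 0.743 in DOX+saline and 0.673 in saline. The log2 difference from DOX+saline was -0.13 (SE 0.07, exact permutation p = 0.104, adjusted p = 0.156), and without DOX+saline animals 1 and 6 it was -0.21 (exact permutation, adjusted p = 0.0343). With the pair averaged to 1 library it was -0.16 and did not pass (exact permutation, adjusted p = 0.0935). Nor did it pass without animal 1 alone (-0.15, exact permutation, adjusted p = 0.121) or animal 6 alone (-0.17, exact permutation, adjusted p = 0.0701). The log2 difference from saline was 0.02 (SE 0.05, exact permutation p = 0.777, adjusted p = 0.777). Of these ways of counting animals 1 and 6, the Pln to Atp2a2 difference between the doxorubicin groups thus passed only with both left out. The difference of DOX+saline from saline passed with both or animal 6 alone left out, and not with the pair averaged or animal 1 alone left out.

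The Casq2 to Atp2a2 ratio ranged from 0.309 to 0.391 in saline, with a median of 0.347. In DOX+saline it ranged from 0.376 (animal 2) to 0.488 (animal 4), with a median of 0.447, and 5 of 6 hearts lay above all saline hearts. In DOX+AICAR it ranged from 0.408 to 0.442, with a median of 0.419, and all 6 hearts lay above all saline hearts. The ratio was 1.27-fold higher than saline in DOX+saline (log2 difference 0.35, SE 0.07, exact permutation p = 0.00433, adjusted p = 0.013). It was 1.22-fold higher than saline in DOX+AICAR (log2 difference 0.28, SE 0.05, adjusted p = 0.013, from an exact permutation p of 0.00216, the least attainable). The 2 doxorubicin groups differed by -0.06 on the log2 scale (SE 0.06, exact permutation p = 0.292, adjusted p = 0.376), by -0.02 without animals 1 and 6 (exact permutation, adjusted p = 0.755) and by -0.05 with them averaged (exact permutation, adjusted p = 0.497). This ratio passed against saline in each of the 17 and 15 alternatives run for the 2 comparisons.

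The Pln to Casq2 ratio lay between 1.77 and 2.09 in saline hearts, 1.40 and 2.12 in DOX+saline hearts, and 1.43 and 1.83 in DOX+AICAR hearts. In DOX+AICAR 5 of 6 hearts lay below the saline range, and the ratio was 0.830 times that of saline (log2 difference -0.27, SE 0.06, exact permutation p = 0.00433, adjusted p = 0.013). In DOX+saline the hearts fell on both sides of saline, with 4 below its range and 1 above it, and the log2 difference of -0.21 (SE 0.10) did not pass (exact permutation p = 0.0887, adjusted p = 0.156). It was -0.08 without animals 1 and 6 (exact permutation, adjusted p = 0.478) and -0.16 with them averaged (exact permutation, adjusted p = 0.237). The 2 doxorubicin groups differed by -0.06 (SE 0.11, exact permutation p = 0.584, adjusted p = 0.657). That difference was -0.19 without animals 1 and 6 (exact permutation, adjusted p = 0.15) and -0.11 with them averaged (exact permutation, adjusted p = 0.434). The size of both differences therefore moved with how these 2 libraries were counted, and none of the values passed.

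**Figure D3:**
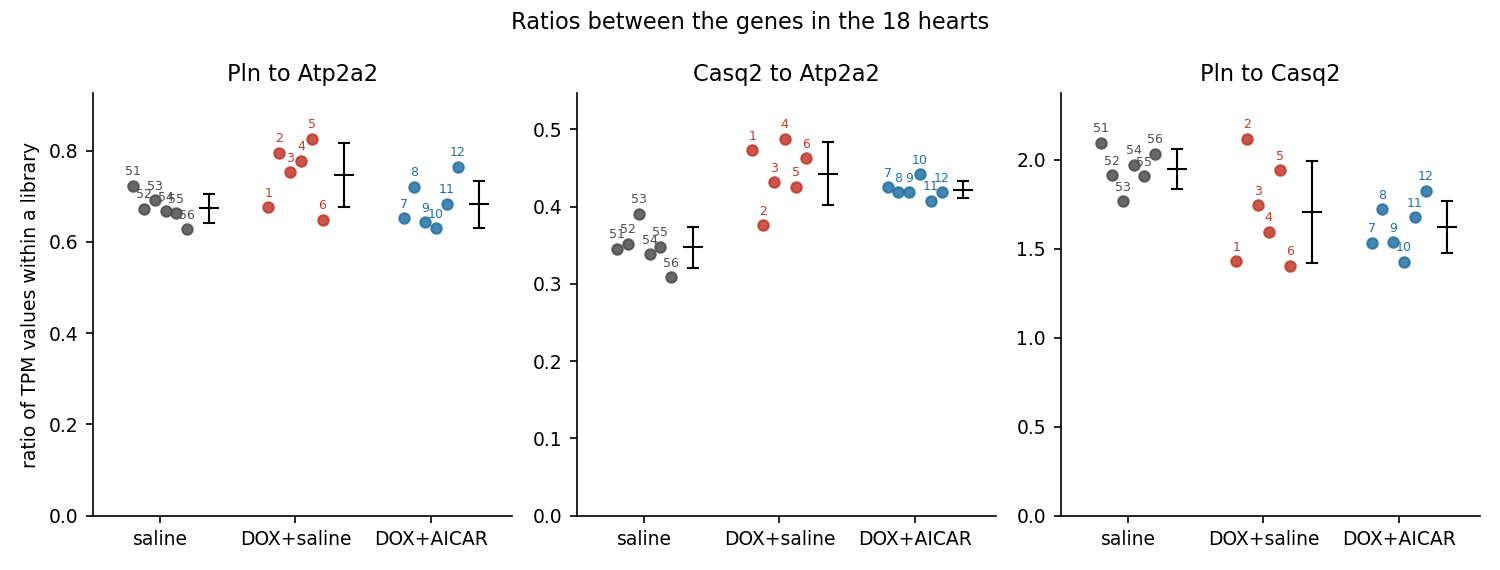
Ratio of TPM values of 2 genes within each library, with animal numbers, by group, and the group mean and SD (n = 6) in black. For Casq2 to Atp2a2 all 6 DOX+AICAR hearts and 5 of 6 DOX+saline hearts lay above the highest saline heart, at 0.391. For Pln to Atp2a2, DOX+saline animals 1 and 6 lay among the saline values and the other 4 above them.

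Animals differed in how evenly these genes were expressed. The coefficient of variation of Pln was 8.09% among saline hearts, 15.7% among DOX+saline hearts and 10.7% among DOX+AICAR hearts, against medians of 4.70%, 7.34% and 5.33% over the 310 abundant genes. In DOX+saline 270 of the 310 varied less than Pln, and with animals 1 and 6 averaged to 1 library its coefficient was 14.3%. Casq2 varied by 5.15%, 4.05% and 4.67% in the same order of groups, and 178, 26 and 126 of the 310 varied less. Atp2a2 varied by 6.63%, 7.61% and 4.04%. The spread itself was not compared between groups with a test.

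Atp2a2 and Pln were positively correlated across animals within each group, but none of 9 correlations (3 pairs of genes in 3 groups of 6 animals) passed after adjustment. Between Atp2a2 and Pln, Pearson's r was 0.796 in saline (exact permutation p = 0.0333, adjusted p = 0.125) with Spearman's rho 0.886 (exact permutation p = 0.0333, adjusted p = 0.1). In DOX+saline r was 0.908 (exact permutation p = 0.00972, adjusted p = 0.0875) and rho 0.943 (exact permutation p = 0.0167, adjusted p = 0.1). In DOX+AICAR r was 0.821 (exact permutation p = 0.0444, adjusted p = 0.125) and rho 0.886 (exact permutation p = 0.0333, adjusted p = 0.1). Without the 2 animals farthest from the median of Atp2a2, r was 0.863, 0.698 and 0.923 in turn, over 4 animals each. In DOX+saline the libraries most alike, animals 1 and 6, lie at the low end of both genes. The r of 0.698 left out animals 2 and 5 and kept this pair. Correlations with the pair counted as 1 library were not run, so the 3 correlations in DOX+saline count both animals.

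The correlation of Casq2 with the pump took both signs. Its r with Atp2a2 was 0.179 in saline (exact permutation p = 0.689, adjusted p = 0.775), with rho 0.143 (exact permutation p = 0.803, adjusted p = 0.903). In DOX+saline r was -0.296 (exact permutation p = 0.562, adjusted p = 0.723), with rho -0.314 (exact permutation p = 0.564, adjusted p = 0.725). In DOX+AICAR r was 0.827 (exact permutation p = 0.0556, adjusted p = 0.125), with rho 0.657 (exact permutation p = 0.175, adjusted p = 0.394), and r fell to 0.357 without animals 7 and 12. The value in DOX+AICAR thus rested on its 2 highest animals, and in the other groups r without the 2 farthest animals was -0.209 and 0.00961. Casq2 and Pln gave a similar mix of values. Their r was 0.643, -0.0683 and 0.489 in the same order of groups (exact permutation p = 0.153, 0.901 and 0.317, adjusted p = 0.275, 0.901 and 0.475). Their rho was 0.486, -0.0857 and 0.371 (exact permutation p = 0.356, 0.919 and 0.497, adjusted p = 0.640, 0.919 and 0.725), and r without the 2 farthest animals was -0.163, 0.174 and 0.477. The difference between these correlations was not tested.

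**Figure D4:**
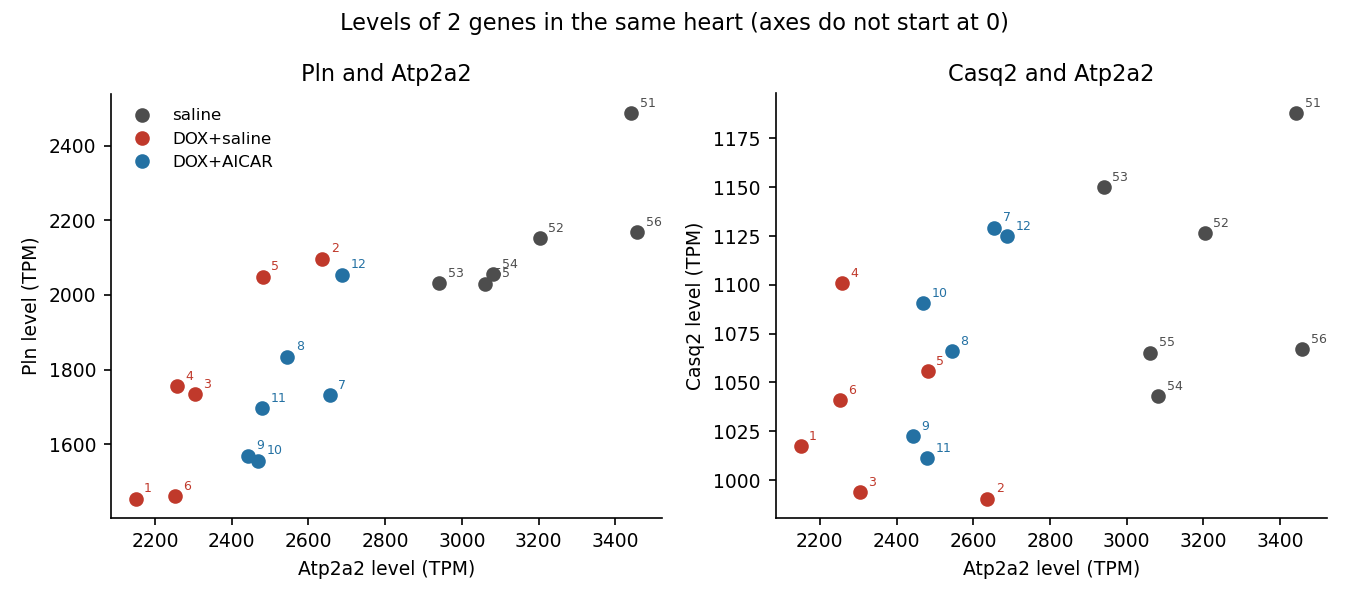
Levels of Pln (left) and Casq2 (right) against Atp2a2 in the same heart, in TPM, 1 point per animal with its number, coloured by group. Neither axis starts at 0. Pln and Atp2a2 lie along a rising band within each group (r = 0.796, 0.908 and 0.821). DOX+saline animals 1 and 6 share its lowest corner and are both counted in r.

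Likeness of pattern was measured as Pearson's correlation of log2(TPM + 1) over all 18 libraries with each of 14731 other genes, given as a description, since points of 1 group share a treatment. Atp2a2 was closely followed by many genes, with r above 0.9 for 307 of them, while Pln had 21 and Casq2 none. The nearest gene to Atp2a2 was ENSRNOG00000025757 (r = 0.978), which averaged 5709 ± 433 TPM (SD, n = 6) in saline hearts and 3841 ± 325 TPM in DOX+saline hearts. The nearest gene to Pln was ENSRNOG00000005064 (r = 0.953), which averaged 414 ± 30.8 TPM (SD, n = 6) in saline hearts and 364 ± 30.9 TPM in DOX+saline hearts. The nearest gene to Casq2 had r = 0.763 and averaged 24.3 ± 19.7 TPM (SD, n = 6) in saline hearts and 7.96 ± 9.36 TPM in DOX+saline hearts. Since all 3 were picked for following a member over these libraries, their levels are a description with no test. Among all genes ordered by likeness to Atp2a2, Pln stood at place 820 (r = 0.842) and Casq2 at place 2837 (r = 0.526). The identifiers carry no name in the table, and no function is attached to them.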

How the data were processed

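Heart RNA of 18 rats was measured by paired-end, strand-specific sequencing of polyadenylated RNA, per the labels' protocols. Reads were processed with bcl2fastq 2.17.1.14, HISAT2 and featureCounts from Subread 1.5.0 on build Rnor_6.0, per the submitters' processing notes. Annotation release and strand setting were not given in the sources used here. The authors deposited TPM values that sum to 1000000 per library, and no other columns.

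Each gene's TPM values are whole reads times a library factor. Whole reads, within 0.001 reads, were found for each of 25878 genes above 0, and 20828 gene lengths came out whole within 0.05 bp (Atp2a2 6620 bp, Pln 2254 bp, Casq2 2529 bp). Reads carry no molecular identifiers, so counting error is a lower limit.

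Genes reaching 1 TPM in 6 or more libraries were tested with limma 3.58.1 (R 4.3.3) on log2(TPM + 1), with a mean per group, a mean-variance trend and all 18 libraries, which share 1 spread per gene. P-values were two-sided and Benjamini-Hochberg adjusted over 14732 genes. Ratios were tested by exact permutation (Python 3.11.15), adjusted over 9 comparisons. Tests were checked on simulated data. Voom on recovered reads and the variants that average or drop animals 1 and 6 were added after seeing the data.

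The 3 genes, their ratios and all lists were chosen with earlier results of these data known. The named genes are the 3 members and the nearest gene in pattern to Atp2a2 and to Pln. The nearest to Casq2 is given by its values alone, since at most 2 unnamed identifiers that were lower are printed. A list of 37 other calcium handling genes and 7 cell type marker lists, written by symbol, had 0 identifiers matched and were not analysed here.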

Additional observations from a re-analysis of the deposited data

Results flagged for a closer look

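Of 18 groups of 6 values tested for an animal far from the rest of its group (3 genes and 3 ratios in 3 groups), 1 stood apart, and chance gives about 1 in 20 groups, or 0.9 here. Saline animal 51 had 2488 TPM of Pln, where the other 5 saline hearts had 2031 to 2168 TPM. It also had the highest Casq2 level of the 18 hearts, at 1188 TPM, and the second highest Atp2a2 level, at 3442 TPM. Without it the Pln log2 change was -0.26 in DOX+saline against saline and -0.27 in DOX+AICAR against saline, and both calls held (limma adjusted p = 0.0261 and 0.0249).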

How the results depend on the processing

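Calls of Atp2a2 in both comparisons with saline, and of Pln in DOX+AICAR against saline, held in all 29 alternatives, as did the Casq2 to Atp2a2 ratio against saline in each of its 17 and 15. Pln in DOX+saline lost its call in 1 of 29, without animals 1 and 6 (-0.18). Casq2 in DOX+saline lost its call with no filter on low values and with only the 12 libraries compared (both -0.10), with quantile normalization (-0.026), array weights (-0.084), voom (-0.092), without animals 1 and 6 (-0.10) and with them averaged (-0.10). It also lost it without saline animal 51, 52 or 53, DOX+saline animal 1, 2, 3 or 6, or DOX+AICAR animal 8 or 10, of 18 fits that leave out 1 animal, which ran from -0.12 without DOX+saline animal 4 to -0.077 without saline animal 51. Casq2 in DOX+AICAR against saline passed with median-of-ratios factors (-0.14) and turned to 0.053 with quantile normalization. The cause of these changes was not tested.

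Between the doxorubicin groups, the Pln log2 change turned to 0.11 with array weights, was -0.13 without animals 1 and 6, and ran from -0.058 to 0.047 with 1 animal left out, without passing in any fit. The number of genes called there was 196, against 321 with quantile normalization, 16 with only the 12 libraries compared, 1058 with array weights, 44 with animals 1 and 6 averaged, and, with 1 animal left out, between 36 (DOX+AICAR animal 10 out) and 461 (DOX+saline animal 2 out). The background share of 1.33% is therefore uncertain.

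The Pln to Atp2a2 log2 difference without animals 1 and 6 passed in DOX+saline against saline (0.23) and in DOX+AICAR against DOX+saline (-0.21). With the pair averaged it was 0.18 and -0.16 in turn and passed in neither. With 1 animal left out DOX+saline against saline ran from 0.11 to 0.18, passing only without animal 6. DOX+AICAR against DOX+saline then ran from -0.17 to -0.097, without passing. DOX+AICAR against saline gave -0.0041 for medians and -0.018 to 0.038 with 1 animal left out. Without DOX+saline animal 2 the Casq2 to Atp2a2 difference between doxorubicin groups passed at -0.11 (range with 1 animal left out -0.11 to -0.036), as did Pln to Casq2 in DOX+saline against saline at -0.27 (range -0.27 to -0.15), but this was -0.080 without animals 1 and 6 and -0.16 with them averaged, and passed in neither. Between doxorubicin groups, Pln to Casq2 ran from -0.12 to 0.0036 with 1 animal left out and was -0.19 without animals 1 and 6. After median-of-ratios factors, with animals 1 and 6 both counted, r in DOX+saline was 0.915 for Atp2a2 with Pln, which passed (exact permutation, adjusted p = 0.0125). With Casq2, r there turned to 0.177 for Atp2a2 and 0.237 for Pln.

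No paired analysis was possible because animal numbers do not repeat between groups. The number of animals, 6 per group, limits the precision.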
